A study of Homo sapiens with 7 samples.

Results

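The ligands and receptors of the tumour necrosis factor (TNF) superfamily were examined in 769-P cells, a long-established line grown from a human clear cell renal carcinoma. Members were taken by gene symbol, as every listed TNFSF or TNFRSF gene and TNF, LTA, LTB, LTBR, FAS, FASLG, CD40, CD27 and CD70. This gave 39 members, 15 ligands and 24 receptors, among 33117 listed genes. CD40LG, which the rule also names, was not analysed here. RNA sequencing covered 3 libraries of cells named PA, which the labels leave unexplained, and 4 of cells named Lat-M, for latent metastatic. The Lat-M libraries are numbered 1-1, 1-2, 2-1 and 2-2 and are treated as 2 pairs, Lat-M1 and Lat-M2, although neither the meaning of the leading number nor the derivation of the cells is stated. Both kinds of cell are labelled 769-P and were grown in the same medium with fetal bovine serum. No clone, passage or treatment is given, and whether replicates were separate cultures is not stated, so the p-values speak only for variation among these 7 libraries, which could be technical. Expression is given as TPM, a transcript abundance corrected for length and brought to a common total, which keeps no read number, so depth is unknown.

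TNF superfamily ligands are mostly trimers made as membrane proteins, and several are cut free by metalloproteinases. Their receptors share cysteine-rich outer domains. Some carry a death domain inside the cell that can start apoptosis through FADD and caspase-8, others recruit TRAF adaptors that lead to NF-kB and kinase signalling, and decoy receptors bind a ligand without passing on a death signal. In renal carcinoma cells CD70 is known for its high expression, and the line lacks the immune cells that make or receive many of these signals.

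Of the 39 members, 21 reached a mean of 1 TPM over the 7 libraries and were tested, 8 ligands and 13 receptors. In Lat-M1 TNF rose 17.1-fold on mean TPM, the costimulatory receptor TNFRSF9 rose 6.53-fold, and 10 further members rose by smaller steps, while LTB, TNFRSF21 and TNFRSF10D fell. In Lat-M2 TNF rose 3.42-fold, TNFSF12 3.33-fold and TNFSF13 2.95-fold, and LTB, TNFSF9, CD70 and TNFRSF19 fell. Changes are log2 fold changes of TPM + 1 with standard errors, tested with limma over 16724 genes at a Benjamini-Hochberg adjusted p under 0.05. Lat-M1 and Lat-M2 were compared with the same PA libraries. In bulk RNA, fewer expressing cells and less RNA per cell cannot be told apart.

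The libraries differed in ways that touch these values. A small set of structural RNAs (RN7SL1, RN7SL2, RN7SK and RMRP) took 29.5 to 31.8% of TPM in PA, 18.6 to 21.9% in Lat-M1 and 22.9 to 27.7% in Lat-M2, and the median log2 fold change over all tested genes was 0.16 for Lat-M1 and 0.14 for Lat-M2 against PA. Where it matters, results are also given on scaled values, for which every library was divided by the median, over genes, of its ratio to the geometric mean of the 7, taking this shift away. The renal marker PAX8 was present in every library, at 65.6 to 87.9 TPM, while KRT19 was at most 0.0761 TPM. Other epithelial markers moved with the groups. KRT8 was at 112 to 142 TPM in PA, 88.8 to 95.0 TPM in Lat-M1 and 181 to 206 TPM in Lat-M2, and KRT18 at 270.4 to 285 TPM, 259 to 267 TPM and 402 to 441 TPM. CDH6 was at 49.0 to 51.3 TPM in PA, 52.0 to 53.3 TPM in Lat-M1 and 30.5 to 33.9 TPM in Lat-M2, and PAX2 at 0.642 to 0.725 TPM, 0.633 to 1.02 TPM and 1.59 to 1.63 TPM. The 3 general leukocyte markers summed to at most 0.414 TPM in any library, the 3 of 4 myeloid markers listed to at most 0.328 TPM and the 1 of 3 B cell markers listed to at most 0.195 TPM. The 4 T and NK cell markers were not analysed here, the 3 of 4 endothelial markers listed summed to at most 0.0853 TPM, and CDH5, an endothelial cadherin, was listed at 0 in all 7. The 5 fibroblast and pericyte markers summed to 1.41 to 1.74 TPM in PA, 20.0 to 21.7 TPM in Lat-M1 and 3.10 to 4.09 TPM in Lat-M2. Most of that was COL1A1, with PDGFRB at most 0.974 TPM and COL1A2, DCN and LUM at most 0.0364 TPM. The part of the structural RNA share and of these markers in the results below was not tested.

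**Figure D1:**
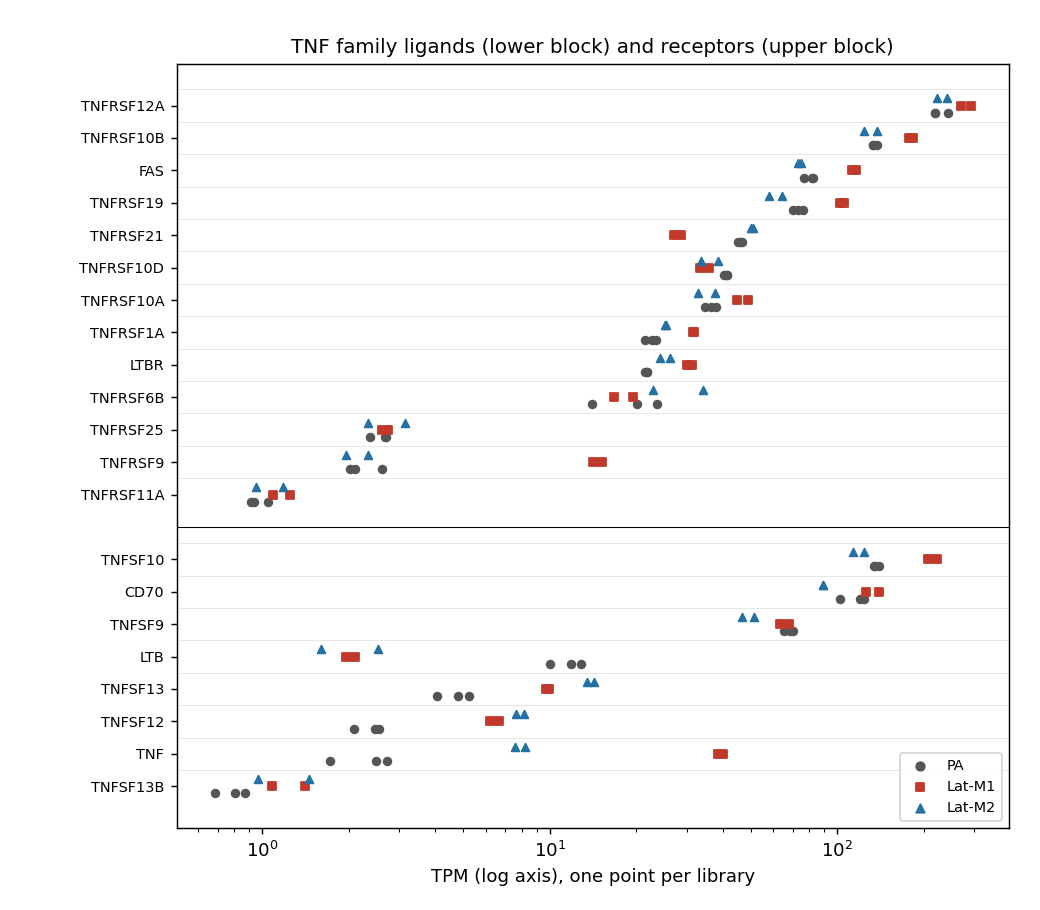
TPM of the 21 tested members in each of the 7 libraries on a log axis, with PA as grey circles, Lat-M1 as red squares and Lat-M2 as blue triangles, ligands below the line and receptors above it. TNF and TNFRSF9 in Lat-M1 lie far to the right of PA, and LTB lies to the left of PA in both Lat-M pairs.

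TNF, LTB and TNFRSF9 carried the largest differences, and the 250 bases before their RefSeq start sites (GRCh38.p14) are shown because TNF and LTB are neighbours that moved in opposite directions and TNFRSF9 separates the Lat-M pairs. TNF lies on the plus strand at chr6:31575315-31575564, LTB on the minus strand at chr6:31582425-31582674, both in the MHC class III region with LTA, and TNFRSF9 on the minus strand at chr1:7940840-7941089. Capitals mark exact matches to the kappaB consensus GGGRNWYYCC, the site of NF-kB, or to the AP-1 motif TGANTCA, searched on both strands. In these R is A or G, N any base, W is A or T and Y is C or T.
TNF: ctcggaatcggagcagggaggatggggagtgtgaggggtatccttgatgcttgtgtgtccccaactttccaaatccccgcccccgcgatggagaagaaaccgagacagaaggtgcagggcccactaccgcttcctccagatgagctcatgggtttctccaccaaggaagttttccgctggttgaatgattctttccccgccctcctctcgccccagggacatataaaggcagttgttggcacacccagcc
LTB: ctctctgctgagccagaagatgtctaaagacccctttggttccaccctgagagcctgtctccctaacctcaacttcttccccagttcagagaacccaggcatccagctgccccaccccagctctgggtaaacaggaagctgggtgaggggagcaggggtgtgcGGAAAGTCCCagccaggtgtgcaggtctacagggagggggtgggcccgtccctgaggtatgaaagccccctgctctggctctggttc
TNFRSF9: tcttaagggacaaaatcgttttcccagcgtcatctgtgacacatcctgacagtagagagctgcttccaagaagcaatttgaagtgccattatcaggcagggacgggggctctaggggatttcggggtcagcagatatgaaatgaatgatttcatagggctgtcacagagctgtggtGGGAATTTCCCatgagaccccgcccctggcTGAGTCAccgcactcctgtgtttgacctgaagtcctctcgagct
The LTB window held 1 kappaB match, 87 bases before the start. The TNFRSF9 window held 2 overlapping kappaB matches, 73 and 74 bases before the start, and an AP-1 match at 44. The TNF window held no exact match to either, and a TATA box (TATAAA on the gene strand) 29 bases before the start. Sites that depart from the consensus or lie further upstream were not searched, so the lack of a match does not mean that TNF has no kappaB site. A kappaB match was found before 7 of the 27 members with an entry and before 6.28% of 27305 genes, an AP-1 match before 5 members and 8.06% of genes, and a TATA box before 5 members and 8.38% of genes. A gene with several start sites was counted if any window matched. Of the 7 members with a kappaB match, LTA, TNFRSF14 and TNFSF14 were too low to be tested for expression. Members without an entry include CD70, TNFSF12, TNFRSF12A, TNFRSF10A, TNFRSF10B, TNFRSF10C and TNFRSF10D. These shares were not tested and do not describe the members whose changes are reported.

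TNF, the founding cytokine of the family and a strong activator of NF-kB, was at 1.72, 2.49 and 2.71 TPM in PA, 38.5 and 40.1 TPM in Lat-M1, and 7.58 and 8.19 TPM in Lat-M2. Both Lat-M pairs lay above PA without overlap, and Lat-M1 lay well above Lat-M2. The log2 fold change against PA was 3.62 ± 0.13 in Lat-M1 (limma adjusted p = 2.14e-06) and 1.44 ± 0.13 in Lat-M2 (limma adjusted p = 0.00129). Lat-M2 was lower than Lat-M1, with a log2 difference of -2.18 ± 0.15 (limma adjusted p = 4.96e-05). LTB, which encodes lymphotoxin beta, the membrane partner of lymphotoxin alpha, went the other way, at 10.0, 11.8 and 12.9 TPM in PA, 1.96 and 2.11 TPM in Lat-M1, and 1.60 and 2.52 TPM in Lat-M2. All 4 Lat-M values lay below the 3 PA values and the Lat-M pairs overlapped. The log2 fold change was -2.05 ± 0.16 in Lat-M1 (limma adjusted p = 6.28e-05) and -2.05 ± 0.16 in Lat-M2 (limma adjusted p = 0.000506). LTA, which lies beside them and encodes lymphotoxin alpha, was at most 0.177 TPM in any library and was not tested. In each PA library LTB exceeded TNF by 4.75 to 5.85 times, and in each Lat-M library TNF exceeded LTB, by 19.1 to 19.6 times in Lat-M1 and 3.25 to 4.73 times in Lat-M2.

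**Figure D2:**
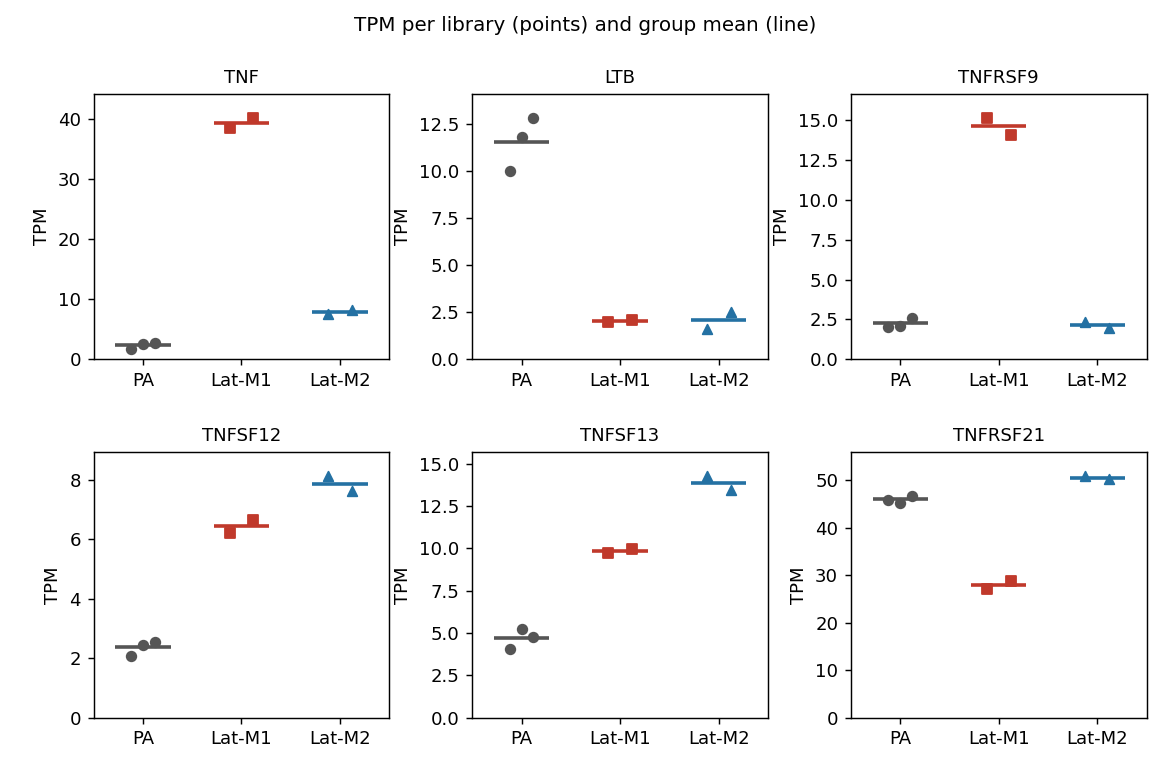
TPM of 6 members in each library (points) with the group mean (line), PA in grey, Lat-M1 in red and Lat-M2 in blue, on linear axes that start at 0. TNF, TNFSF12 and TNFSF13 are above PA in all 4 Lat-M libraries, LTB is below PA in all 4, and TNFRSF9 and TNFRSF21 stand apart in Lat-M1.

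TNFSF12 (TWEAK, the ligand of TNFRSF12A) and TNFSF13 (APRIL, a B cell growth factor) are neighbouring genes. TNFSF12 was at 2.09, 2.46 and 2.54 TPM in PA, 6.22 and 6.66 TPM in Lat-M1, and 8.13 and 7.62 TPM in Lat-M2. TNFSF13 was at 4.06, 5.24 and 4.78 TPM in PA, 9.74 and 9.95 TPM in Lat-M1, and 14.3 and 13.5 TPM in Lat-M2. For each gene all 4 Lat-M values lay above PA, and both Lat-M2 values lay above both Lat-M1 values. TNFSF12 rose by 1.15 ± 0.10 in Lat-M1 (limma adjusted p = 0.000121) and 1.40 ± 0.10 in Lat-M2 (limma adjusted p = 0.000368). TNFSF13 rose by 0.93 ± 0.10 (limma adjusted p = 0.000325) and 1.39 ± 0.10 (limma adjusted p = 0.000382). Lat-M2 was above Lat-M1 for TNFSF13 (0.45 ± 0.11, limma adjusted p = 0.0163), and the difference of 0.25 ± 0.11 for TNFSF12 did not pass (limma adjusted p = 0.114). The call for TNFSF13 ended without Lat-M 1-1 (0.44, limma adjusted p = 0.0797), without 1-2 (0.47, 0.0679) and without 2-1 (0.42, 0.0774). The listed readthrough gene TNFSF12-TNFSF13, which joins parts of both, was at 3.62, 4.26 and 4.41 TPM in PA, 9.28 and 9.76 TPM in Lat-M1, and 13.6 and 12.8 TPM in Lat-M2. How reads were divided among these 3 overlapping entries is not given in the sources used here, so their separate levels are uncertain.

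TNFSF10 (TRAIL), which triggers apoptosis through its death receptors, was the most abundant ligand in each group mean. It was at 135, 135 and 139.6 TPM in PA, 206 and 222 TPM in Lat-M1, and 124 and 114 TPM in Lat-M2. It rose in Lat-M1 (0.64 ± 0.061, limma adjusted p = 0.000177), and in Lat-M2 its values lay below PA without passing the test (-0.20 ± 0.061, limma adjusted p = 0.0664). On scaled values the Lat-M2 difference passed the test as a fall (-0.35, limma adjusted p = 0.000848). CD70, the ligand of CD27, was at 102, 124 and 120.1 TPM in PA, 126 and 140.1 TPM in Lat-M1, and 89.3 and 89.1 TPM in Lat-M2. TNFSF9 (4-1BB ligand), the partner of TNFRSF9, was at 68.5, 69.9 and 65.1 TPM in PA, 63.4 and 67.9 TPM in Lat-M1, and 51.5 and 46.8 TPM in Lat-M2. Both were lowest in the Lat-M2 pair, which did not overlap the other libraries. TNFSF9 fell in Lat-M2 (-0.46 ± 0.067, limma adjusted p = 0.00866), and its Lat-M1 difference of -0.048 did not pass (limma adjusted p = 0.593) but did on scaled values (-0.22, limma adjusted p = 0.0126). In Lat-M1 CD70 differed from PA by 0.20 ± 0.092 (limma adjusted p = 0.116), which did not pass. CD70 fell in Lat-M2 (-0.37 ± 0.092, limma adjusted p = 0.0411), a call that ended when any library but PA 1 was left out (log2 fold changes of -0.37 to -0.31, limma adjusted p = 0.0593 to 0.175). TNFSF13B (BAFF), a B cell survival factor, was at 0.806, 0.683 and 0.872 TPM in PA, 1.08 and 1.41 TPM in Lat-M1, and 1.45 and 0.964 TPM in Lat-M2. It did not pass any test, and it reached the mean of 1 TPM through the Lat-M libraries.

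Among the receptors TNFRSF9 (4-1BB, a costimulatory receptor of T cells that signals through TRAF1 and TRAF2) differed most. It was at 2.02, 2.10 and 2.61 TPM in PA, 15.2 and 14.1 TPM in Lat-M1, and 2.33 and 1.96 TPM in Lat-M2. The Lat-M1 values stood above all others, and Lat-M2 overlapped PA. The log2 fold change was 2.27 ± 0.12 in Lat-M1 (limma adjusted p = 1.06e-05) and -0.043 ± 0.12 in Lat-M2, which did not pass the test. Lat-M2 was below Lat-M1, with a log2 difference of -2.32 ± 0.13 (limma adjusted p = 2.03e-05). TNFRSF21 (death receptor 6) was the receptor with the largest fall, at 45.9, 45.3 and 46.8 TPM in PA, 27.0 and 28.7 TPM in Lat-M1, and 50.9 and 50.2 TPM in Lat-M2. It fell in Lat-M1 (-0.70 ± 0.053, limma adjusted p = 6.14e-05). Its Lat-M2 values lay just above PA, a difference of 0.13 ± 0.053 that did not pass the test (limma adjusted p = 0.133) and was -0.017 on scaled values. Lat-M2 was above Lat-M1 by 0.84 ± 0.059 (limma adjusted p = 5.72e-05).

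Among the tested death receptors FAS, TNFRSF10A, TNFRSF10B and TNFRSF1A were each highest in Lat-M1. The death receptors did not move as a set, since TNFRSF21 was lowest in Lat-M1 and TNFRSF25 overlapped between all groups. FAS, the receptor of FAS ligand, was at 81.7, 76.4 and 82.4 TPM in PA, 113 and 117 TPM in Lat-M1, and 74.6 and 73.1 TPM in Lat-M2. TNFRSF10B, a TRAIL receptor, was at 133, 133 and 137 TPM in PA, 178 and 184 TPM in Lat-M1, and 137 and 124 TPM in Lat-M2. TNFRSF10A, the other TRAIL death receptor, was at 36.4, 34.8 and 37.8 TPM in PA, 45.0 and 48.8 TPM in Lat-M1, and 37.5 and 32.9 TPM in Lat-M2. For all 3 the Lat-M1 pair lay above both other groups, and they rose in Lat-M1 by 0.51 ± 0.056 (FAS, limma adjusted p = 0.000357), 0.43 ± 0.061 (TNFRSF10B, 0.00125) and 0.36 ± 0.077 (TNFRSF10A, 0.00779). The call of TNFRSF10A ended without Lat-M 1-2 (0.30, limma adjusted p = 0.0721), as did its difference between the Lat-M pairs (-0.35, limma adjusted p = 0.0636). None of the 3 passed in Lat-M2 against PA (-0.12, -0.043 and -0.047, limma adjusted p = 0.198, 0.66 and 0.706). On scaled values all 3 passed as falls there (-0.27, -0.20 and -0.20, limma adjusted p = 0.0129, 0.00935 and 0.0238). Lat-M2 was lower than Lat-M1, with log2 differences of -0.63 ± 0.061 for FAS (limma adjusted p = 0.000295) and -0.47 ± 0.067 for TNFRSF10B (limma adjusted p = 0.00169).

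TNFRSF1A, the widely expressed receptor of TNF and lymphotoxin alpha, was at 21.5, 23.4 and 22.8 TPM in PA, 31.6 and 31.8 TPM in Lat-M1, and 25.1 and 25.4 TPM in Lat-M2. It rose in Lat-M1 (0.47 ± 0.058, limma adjusted p = 0.000629). It did not pass in Lat-M2 (0.16 ± 0.058, limma adjusted p = 0.111), a difference of 0.011 on scaled values (limma adjusted p = 0.928). Its difference between the Lat-M pairs (-0.32, limma adjusted p = 0.00788) ended as a call without Lat-M 1-2 (-0.31, 0.052). TNFRSF1B, the other TNF receptor, was at most 0.13 TPM. LTBR, the receptor of the lymphotoxin alpha and beta complex and of TNFSF14, was at 21.5, 21.8 and 21.7 TPM in PA, 30.1 and 31.3 TPM in Lat-M1, and 26.2 and 24.1 TPM in Lat-M2. The Lat-M1 pair was highest and both Lat-M pairs lay above PA. LTBR rose in Lat-M1 (0.48 ± 0.059, limma adjusted p = 0.000593), where LTB, which encodes part of that complex, fell. The Lat-M2 difference of LTBR was 0.20 ± 0.059 (limma adjusted p = 0.059), or 0.056 on scaled values. Lat-M2 was below Lat-M1 (-0.28, limma adjusted p = 0.0137), a call that ended without Lat-M 1-1 (-0.31, 0.0514) and without 1-2 (-0.25, 0.0916).

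TNFRSF10D, a TRAIL receptor with a shortened death domain, was at 40.4, 41.2 and 41.3 TPM in PA, 33.4 and 36.0 TPM in Lat-M1, and 38.5 and 33.7 TPM in Lat-M2. Both Lat-M pairs lay below PA. The fall in Lat-M1 (-0.23 ± 0.071, limma adjusted p = 0.0311) ended when any PA or Lat-M1 library was left out (-0.29 to -0.18, limma adjusted p = 0.0628 to 0.185), and the Lat-M2 difference was -0.18 ± 0.071 (limma adjusted p = 0.125). On scaled values TNFRSF10D passed as a fall in Lat-M1 (-0.41, limma adjusted p = 0.000226) and in Lat-M2 (-0.33, limma adjusted p = 0.00328). TNFRSF10C, the TRAIL receptor without a death domain, was at most 0.961 TPM and was not tested. Together these decoys made up 19.4 to 20.1% of the TPM of the 4 TRAIL receptors in PA, 13.2 to 13.6% in Lat-M1 and 17.9 to 18.3% in Lat-M2, a description with no test. The 4 genes are similar in sequence, and how reads were shared among them is not given in the sources used here. TNFRSF6B, a soluble decoy for FAS ligand, was at 14.1, 23.5 and 20.1 TPM in PA, 16.8 and 19.5 TPM in Lat-M1, and 34.2 and 22.8 TPM in Lat-M2. Its PA values spread widely and no comparison passed the test. It overlaps the listed readthrough gene RTEL1-TNFRSF6B, which was at 6.87 to 11.8 TPM, so its own level is uncertain.

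TNFRSF12A, the receptor of TNFSF12, was the most abundant member in each group mean, at 218, 243 and 219 TPM in PA, 269.8 and 292 TPM in Lat-M1, and 222 and 241 TPM in Lat-M2. Its rise in Lat-M1 (0.31 ± 0.074, limma adjusted p = 0.0123) ended without Lat-M 1-2 (0.25, limma adjusted p = 0.104) and on scaled values (0.13, 0.271). Its difference between the Lat-M pairs (-0.28, limma adjusted p = 0.0328) ended on scaled values too (-0.25, 0.0763), and without PA 3, Lat-M 1-1, 1-2 or 2-1 (-0.33 to -0.22, limma adjusted p = 0.0551 to 0.177). TNFRSF19 (TROY), an orphan receptor of epithelial and neural progenitors, was at 72.9, 70.4 and 76.2 TPM in PA, 102 and 105 TPM in Lat-M1, and 64.3 and 58.0 TPM in Lat-M2. Lat-M1 lay above PA and Lat-M2 below it. TNFRSF19 rose in Lat-M1 (0.50 ± 0.065, limma adjusted p = 0.000832) and fell in Lat-M2 (-0.26 ± 0.065, limma adjusted p = 0.0423). The fall ended as a call when any 1 of the 7 libraries was left out (-0.33 to -0.18, limma adjusted p = 0.0568 to 0.117), and was -0.41 on scaled values (limma adjusted p = 0.00115). The Lat-M pairs differed by -0.76 ± 0.072 (limma adjusted p = 0.000255). TNFRSF25 (death receptor 3) was at 2.36, 2.67 and 2.70 TPM in PA, 2.74 and 2.60 TPM in Lat-M1, and 2.34 and 3.14 TPM in Lat-M2. TNFRSF11A (RANK) was at 0.938, 0.91 and 1.05 TPM in PA, 1.25 and 1.09 TPM in Lat-M1, and 1.18 and 0.951 TPM in Lat-M2. TNFRSF25 overlapped between all groups, TNFRSF11A reached the mean of 1 TPM through the Lat-M libraries, and neither passed any test.

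**Figure D3:**
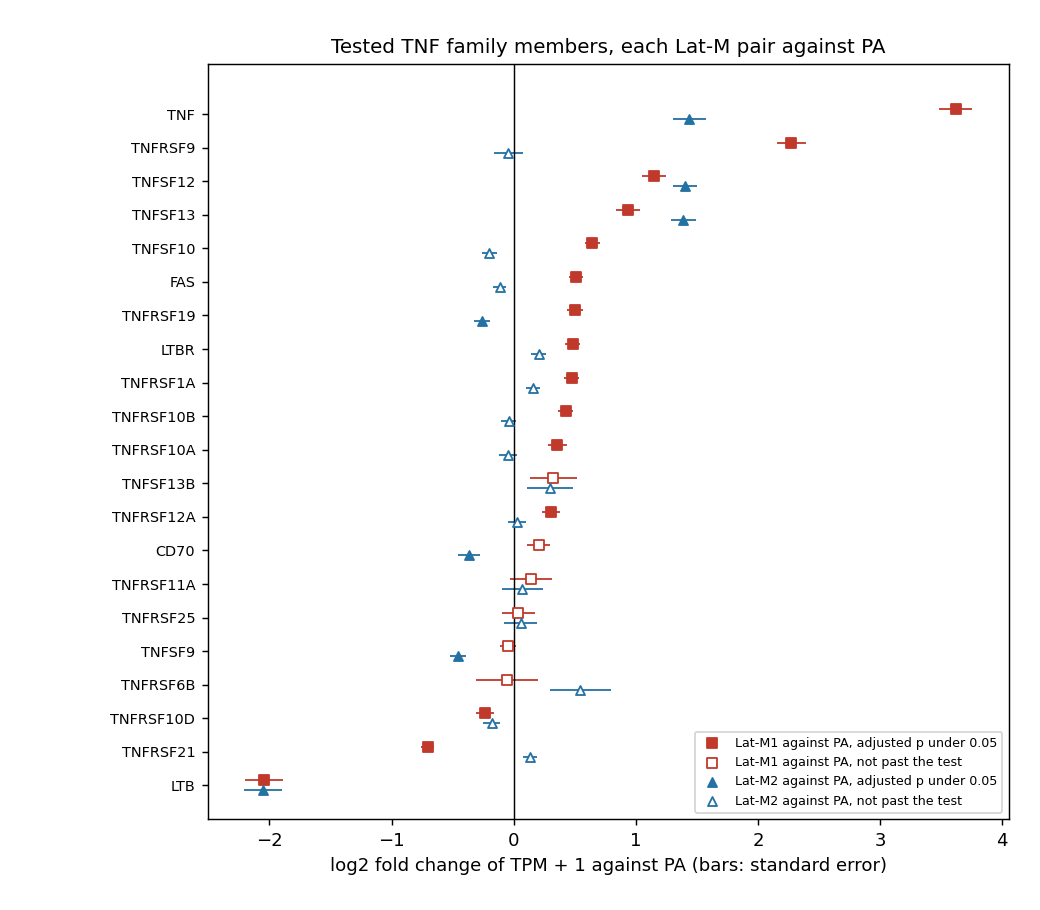
Log2 fold changes of TPM + 1 against PA for the 21 tested members, ordered by Lat-M1 (red squares) with Lat-M2 as blue triangles. Bars are standard errors, and filled symbols passed the test. TNF, TNFSF12 and TNFSF13 are to the right of 0 in both pairs, LTB is at -2.05 in both, and TNFRSF9 is at 2.27 in Lat-M1 and -0.043 in Lat-M2.

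The 18 untested members were 7 ligands and 11 receptors at low levels. TNFRSF11B (osteoprotegerin, the decoy of the ligand TNFSF11) was at 0, 0.0923 and 0 TPM in PA, 0.866 and 0.831 TPM in Lat-M1, and 0.313 and 0.18 TPM in Lat-M2. Its highest values were in Lat-M1, and it was listed at 0 in 2 of the 3 PA libraries. TNFRSF10C and TNFRSF11B aside, the other 16 were at most 0.423 TPM in any library, and 9 of the 18 were listed at 0 in at least 4 libraries. These 16 were LTA, FASLG, TNFSF4, TNFSF11, TNFSF14, TNFSF15 and TNFSF18 among the ligands, and CD27, CD40, TNFRSF1B, TNFRSF4, TNFRSF8, TNFRSF13C, TNFRSF14, TNFRSF17 and TNFRSF18 among the receptors. Several known pairs were therefore listed on 1 side, such as CD70 at 89.1 to 140.1 TPM with CD27 at most 0.0721 TPM, and FAS at 73.1 to 117 TPM with FASLG at most 0.0543 TPM. Both sides of the pairs TNF with TNFRSF1A, TNFSF9 with TNFRSF9, TNFSF12 with TNFRSF12A and TNFSF10 with TNFRSF10A and TNFRSF10B were above 1 TPM in every library. LTB and LTBR were too, but LTA, the partner of LTB in the complex that LTBR binds, was at most 0.177 TPM.

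Counted over the tested members, 12 of 21 were higher and 3 lower in Lat-M1 against PA, beside 33.2% and 11.6% of all tested genes called higher and lower. The median log2 fold change of the 21 was 0.36 against 0.16 over all genes, and 11 were higher and 4 lower on scaled values, beside 23.9% and 23.0%. Groups did not overlap for 18 of 21 members and for 68.0% of all genes. By role, 4 of 8 ligands and 8 of 13 receptors were higher without scaling, and 4 and 7 on scaled values. Between Lat-M2 and PA, 3 members of 21 were higher and 4 lower, beside 12.7% and 2.24% of all genes, with a median of 0.030 against 0.14. All 3 rises were ligands, and 3 of the 4 falls were ligands. On scaled values 3 were higher and 9 lower, beside 7.45% and 8.41%, since TNFSF10, FAS, TNFRSF10A, TNFRSF10B and TNFRSF10D passed as falls. Groups did not overlap for 14 of 21 members, beside 49.8% of all genes.

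In Lat-M2 against Lat-M1, which asked where the Lat-M pairs differ, 2 of 21 members were higher, TNFSF13 and TNFRSF21, and 12 were lower, beside 16.0% and 20.1% of all genes. The median was -0.28 against -0.011 over all genes. The lower members were TNF, TNFSF9, TNFSF10 (-0.84 ± 0.066, limma adjusted p = 0.000101), CD70 (-0.57 ± 0.10, limma adjusted p = 0.00455), TNFRSF9, FAS, TNFRSF10A, TNFRSF10B, TNFRSF1A, LTBR, TNFRSF19 and TNFRSF12A. Without Lat-M 1-2, a fit that left 1 library in Lat-M1, fewer than these 14 passed, and the share of all genes called fell too. Beside these 14 of 21, 36.0% of all genes passed in either direction, and the pairs did not overlap for 16 of 21 members and 68.3% of all genes. On scaled values 3 were higher and 11 lower, beside 21.6% and 22.6%, with TNFSF12 gained (0.27, limma adjusted p = 0.0463) and TNFRSF12A lost.

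With the 4 Lat-M libraries taken as 1 group, as the study's own design sets them, 3 of 21 members passed against PA. This fit counts the 4 libraries as separate units. They correlated at r = 0.987 within Lat-M1, 0.984 within Lat-M2 and 0.943 to 0.947 between the pairs. If each pair is 1 unit, the p-values of this fit may be too small. TNFSF12 (1.27 ± 0.13, limma adjusted p = 0.00785) and TNFSF13 (1.16 ± 0.16, limma adjusted p = 0.027) were higher, beside 2.51% of all genes, and LTB (-2.05 ± 0.14, limma adjusted p = 0.00224) was lower, beside 0.389%. TNF did not pass in that fit (2.53 ± 0.63, limma adjusted p = 0.0766), whose spread holds the difference between the Lat-M pairs, although its 4 Lat-M values lay above all PA values. It did pass as the mean of the pairs in the fit of 3 groups (limma adjusted p = 1.15e-05). The spread of that fit leaves out the difference between the pairs, and it called 13 members. Lat-M and PA did not overlap for 8 of 21 members and 28.5% of all genes. In the fit of 2 groups TNF passed without Lat-M 2-2 (2.88, limma adjusted p = 0.0392), and 5 members did. TNFSF12 did not pass without PA 1, PA 2 or PA 3 (1.21, 1.30 and 1.31, limma adjusted p = 0.0635, 0.0596 and 0.0586). TNFSF13 did not pass without any of these (1.08, 1.23 and 1.17, limma adjusted p = 0.164, 0.131 and 0.135), nor without Lat-M 1-1, 1-2 or 2-1 (1.24, 1.23 and 1.07, limma adjusted p = 0.0512, 0.0563 and 0.0549). LTB passed without each library in turn. On scaled values 2 were higher and 2 lower, beside 0.676% and 0.569%, with TNFRSF10D gained.

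The genes whose pattern over the 7 libraries was most like that of TNF, by Pearson's r of log2(TPM + 1) over the 16724 tested genes, were LIMS2 (r = 0.999), CDYL2 (0.998), FAXDC2 (0.998), ZNF300 (0.998) and the chemokine CCL2 (0.997). CCL2 was at 2.53, 3.14 and 3.28 TPM in PA, 35.2 and 42.5 TPM in Lat-M1, and 9.96 and 10.3 TPM in Lat-M2. LIMS2 was at 1.19, 1.68 and 1.73 TPM in PA, 13.7 and 14.1 TPM in Lat-M1, and 3.65 and 3.81 TPM in Lat-M2. Like TNF, both were highest in Lat-M1 and intermediate in Lat-M2. The 7 libraries fall into 3 groups, and no test was made of r.

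Genes that carry signals from these receptors were examined through a list of 46 outside the member rule, of which 44 were listed and 41 tested. In Lat-M1 against PA 29 of 41 were higher and 2 lower, beside 33.2% and 11.6% of all tested genes, with a median of 0.40 against 0.16. On scaled values 23 were higher and 2 lower, beside 23.9% and 23.0%. By role and without scaling, 15 of 19 adaptors and kinases, 5 of 9 ubiquitin-editing genes and 5 of 8 cell death genes were higher. So were both sheddases and 2 of 3 further family proteins. On scaled values these counts were 11, 4, 4, 2 and 2, in the same order. TNFAIP3 (A20), which removes ubiquitin to shut off NF-kB signalling, was at 7.84, 7.83 and 8.78 TPM in PA, 26.9 and 29.4 TPM in Lat-M1, and 8.23 and 8.04 TPM in Lat-M2. TRAF1, an adaptor of TNFRSF9 and TNFRSF1B, was at 2.37 to 2.52 TPM in PA, at 7.61 and 8.82 TPM in Lat-M1, and at a mean of 1.53 ± 0.0418 TPM in the Lat-M2 pair (SD, n = 2). RIPK1, the kinase that joins TNFRSF1A to NF-kB and to cell death, was at 26.2, 26.0 and 26.4 TPM in PA, 56.5 and 60.1 TPM in Lat-M1, and 30.7 and 27.2 TPM in Lat-M2. All 3 were highest in Lat-M1, with rises of 1.67 ± 0.077 (limma adjusted p = 5.79e-06), 1.42 ± 0.11 (6.28e-05) and 1.12 ± 0.067 (2.02e-05). MAP3K5 (ASK1), a stress kinase bound by TRAF2, was at 44.4, 42.5 and 44.1 TPM in PA, 16.8 and 16.4 TPM in Lat-M1, and 48.2 and 42.0 TPM in Lat-M2, with a fall in Lat-M1 of -1.35 ± 0.07 on the log2 scale (limma adjusted p = 1.03e-05), and XIAP, an inhibitor of caspases, fell by a smaller step (-0.24 ± 0.076, limma adjusted p = 0.0357). The XIAP call ended without PA 1, PA 3, Lat-M 1-1 or 1-2 (-0.29 to -0.20, limma adjusted p = 0.0799 to 0.187). Without Lat-M 1-2, a fit that left 1 library in Lat-M1, fewer of the 41 passed, and the share of all genes called fell too.

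Of these 41 genes, 6 were higher and 2 lower in Lat-M2 than in PA, beside 12.7% and 2.24% of all genes, with a median of 0.13 against 0.14, and on scaled values 4 were higher and 3 lower, beside 7.45% and 8.41%. TRAF5, an adaptor of several receptors of lymphocytes, was at 2.19, 2.42 and 2.42 TPM in PA, 3.50 and 4.05 TPM in Lat-M1, and 6.56 and 6.09 TPM in Lat-M2. It rose by 1.13 ± 0.11 in Lat-M2 (limma adjusted p = 0.00127), more than in Lat-M1 (0.51 ± 0.11, a call that ended without 1-2 at 0.43, limma adjusted p = 0.0661; difference 0.62 ± 0.12, limma adjusted p = 0.00555). EDAR, the ectodysplasin receptor, was higher in Lat-M2 (0.92 ± 0.15, limma adjusted p = 0.013), the group through which it reached the mean of 1 TPM. CYLD, a deubiquitinase of the same pathway, rose in Lat-M1 and Lat-M2 (1.12 ± 0.094 and 0.37 ± 0.094, limma adjusted p = 9.69e-05 and 0.0404), and its Lat-M2 call ended on scaled values (0.23, 0.0638). TRAF1 (-0.45 ± 0.11, limma adjusted p = 0.0364) and EDA2R, another ectodysplasin receptor (-0.47 ± 0.11, limma adjusted p = 0.0327), fell in Lat-M2 where both rose in Lat-M1 (1.42 and 0.59), and the Lat-M pairs differed for each (-1.86 and -1.06, limma adjusted p = 3.66e-05 and 0.000535). Both falls ended as calls when any 1 of the 7 libraries was left out, with limma adjusted p = 0.0661 to 0.131 for TRAF1 and 0.0505 to 0.0997 for EDA2R. The Lat-M2 rise of CYLD ended without any library but Lat-M 2-2 (limma adjusted p = 0.0643 to 0.197), and that of EDAR without 2-1 (0.95, limma adjusted p = 0.0741). The Lat-M2 count of 8 was 2 without PA 1, 2 without PA 2 and 4 without PA 3. Over all genes the share called was 7.35, 6.7 and 7.62% in these fits, in place of 14.9%. Fits without a Lat-M library left 1 library in a pair, and their counts ran both below and above 8. In Lat-M2 against Lat-M1 4 were higher and 18 lower, beside 16.0% and 20.1% of all genes. With Lat-M as 1 group limma called none of the 41 against PA, where 15 had an unadjusted p under 0.05, beside 25.5% of all tested genes under that value and 2.51% and 0.389% called higher and lower.

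**Figure D4:**
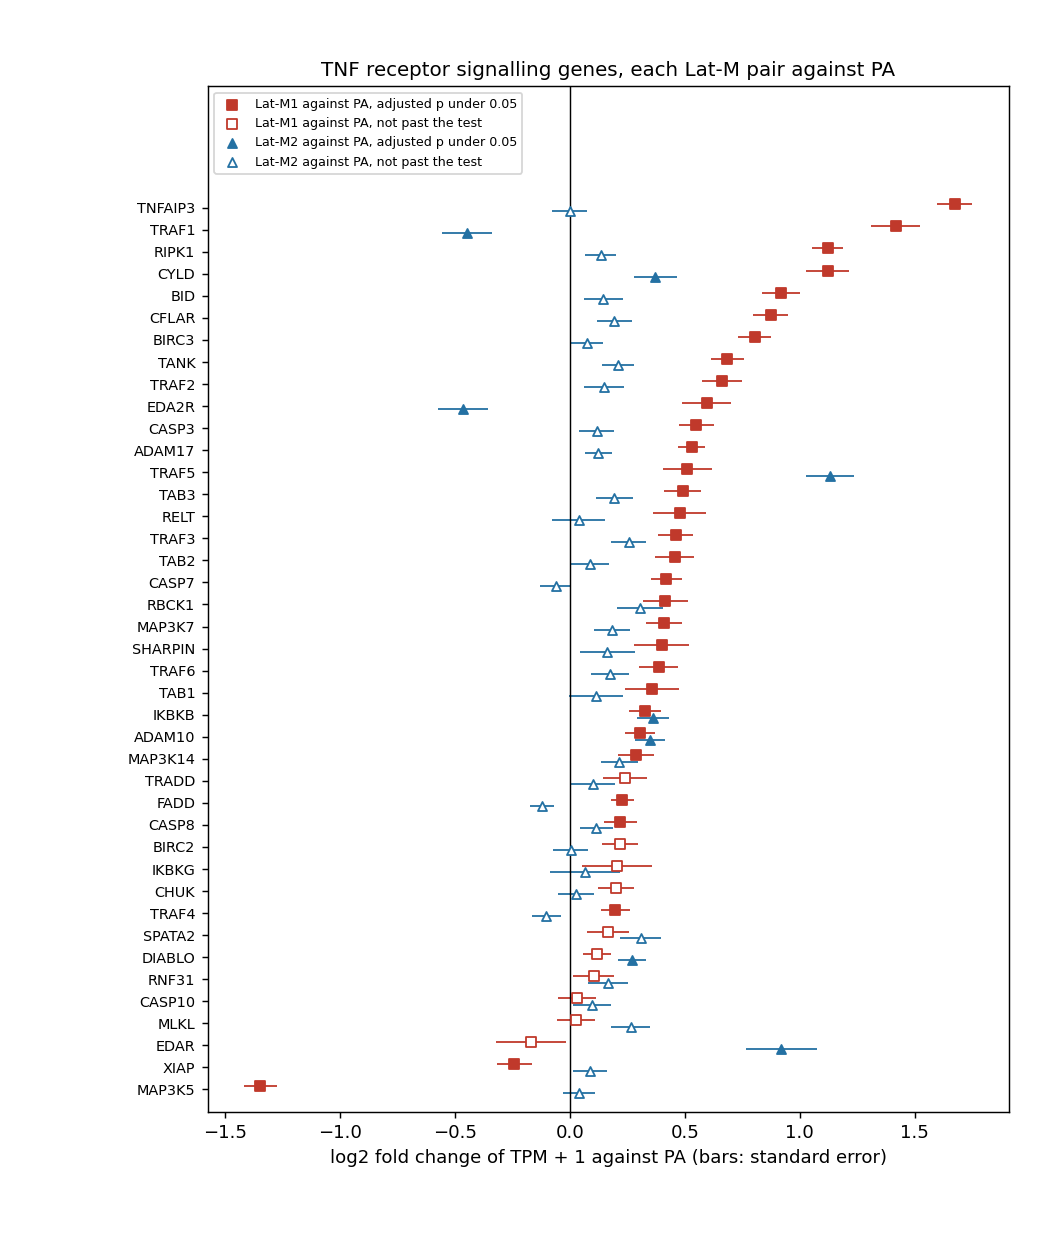
Log2 fold changes of TPM + 1 against PA for the 41 tested genes of TNF receptor signalling, ordered by Lat-M1 (red squares) with Lat-M2 as blue triangles. Bars are standard errors, and filled symbols passed the test. Most Lat-M1 symbols are filled and to the right of 0, TNFAIP3, TRAF1 and RIPK1 among the farthest, while most Lat-M2 symbols are open.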

How the data were processed

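RNA was sequenced from 3 PA and 4 Lat-M libraries of 769-P. The authors deposited TPM for each gene, as the values show, since every library has the same sum. TopHat2 2.2.4 and hg19 stand in the submitters' processing notes. The quantifier, annotation, strandedness and the kit behind each library (1 of 2 named in the labels) are not given in the sources used here. The symbol's ID with the highest mean stood for each member. The 16724 genes averaging 1 TPM or more were tested as log2(TPM + 1) with limma 3.58.1 (R 4.3.3, trend and robust options, tested on simulated data), Benjamini-Hochberg adjusted over all of them. A fit of 3 groups gave the pair comparisons and a fit of 2 groups Lat-M against PA. Every tested member is named. Untested members are named with their highest value where a library reached 0.5 TPM. Of the signalling list, up to 3 higher and 3 lower genes with the largest change in each pair against PA are named. The 5 genes most like the member with the largest change are named. Members and lists were chosen with earlier results of these data known. Alternatives varied the pseudocount, filter, scaling, size of change, replicate block and libraries. Promoter sequences are RefSeq's, in GRCh38.p14, and no hg19 coordinates are used.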

Additional observations from a re-analysis of the deposited data

Results flagged for a closer look

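The effects against PA differed between the Lat-M pairs for 14 of the 21 tested members (limma adjusted p under 0.05). This is the comparison of Lat-M2 with Lat-M1 given above and not a further test, since both effects are taken against the same PA libraries. Among the ligands the difference (Lat-M2 minus Lat-M1, log2 scale) was -2.18 for TNF, -0.84 for TNFSF10, -0.57 for CD70, -0.41 for TNFSF9 and 0.45 for TNFSF13. Among the receptors it was -2.32 for TNFRSF9, -0.76 for TNFRSF19, -0.63 for FAS, -0.47 for TNFRSF10B, -0.40 for TNFRSF10A, -0.32 for TNFRSF1A, -0.28 for LTBR, -0.28 for TNFRSF12A and 0.84 for TNFRSF21. Beside these 14 of 21, 36.0% of all tested genes differed between the pairs. In the 4 Lat-M libraries taken as 1 group, no library passed Dixon's test, the gap at an end over the range, for any of the 21 tested members. The Lat-M pairs did not overlap for 16 of the 21, so that range holds the difference between the pairs. The test therefore cannot show whether a single library stood apart.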

How the results depend on the processing

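Without the libraries one at a time, the members past the threshold numbered 12 to 15 in Lat-M1 against PA, 5 to 6 in Lat-M2 against PA, 9 to 14 in Lat-M2 against Lat-M1 and 1 to 5 in Lat-M against PA, in place of 15, 7, 14 and 3. Over all genes the share called ranged from 28.1 to 47.5%, 2.95 to 18.9%, 22.9 to 34.8% and 0.107 to 11.1% in the same fits. A pair left with 1 library was assumed to vary like the other groups. The signalling genes numbered 18 to 33, 1 to 10, 17 to 22 and 0 to 7, in place of 31, 8, 22 and 0. Counting only changes of at least 2-fold left 4, 4 and 2 members in the first 3 comparisons and 5, 1 and 5 signalling genes, beside 7.52, 1.49 and 6.71% of all genes. A test against a 1.5-fold change left 4, 4, 4 and 1 members and 7, 0 and 5 signalling genes, beside 7.15, 0.747, 5.76 and 0.0837% of all genes. For Lat-M2 against PA, median ratio scaling gave 12 members and leaving out the structural RNAs gave 11, beside 15.9 and 13.6% of all genes. No filter on low values gave 4 signalling genes there, beside 4.72% of all genes. For Lat-M against PA, the mean of the pairs in the fit of 3 groups gave 13 members and 25 signalling genes. That setting called 36.5% of all genes, where the fit of 2 groups called 2.9%. A minimum mean of 5 TPM gave 2 signalling genes, beside 4.64% of all genes. The last number of the library name did not pair the libraries (correlations of same-numbered libraries' deviations -0.082 to 0.031). As a replicate block it left 14, 5, 12 and 0 members and 24, 1, 20 and 0 signalling genes, beside 35.3, 5.64, 28.7 and 0% of all genes. With that block, in a check of single signalling genes chosen after seeing the data, limma gave adjusted p = 0.17 for XIAP in Lat-M1, and 0.16 for TRAF1, 0.0921 for EDA2R, 0.0988 for CYLD and 0.0534 for EDAR in Lat-M2. Apart from the 2-fold and 1.5-fold settings, 12 of 15, 5 of 7, 9 of 14 and 0 of 3 member calls were kept in every alternative, and no called member changed sign. The cause of each change was not tested. TPM keeps no read counts, so what depth limits is unknown.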
